A study of Mus musculus with 9 samples.

Results

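The transcriptomes of 3 libraries of B16 cells, CTL 1, MS 3 and Blebb 2, were compared with those of the other 6 libraries of the same series, CTL 2, CTL 3, MS 1, MS 2, Blebb 1 and Blebb 3. The 3 libraries were chosen by their high levels of Trib3 and Ddit3, and each of the 3 culture conditions holds 1 of them. They make up 3 of 9 libraries, and the comparison covered 9767 named genes whose average over the libraries reached 1 FPKM (fragments per kilobase of transcript, scaled to the mapped fragments of the library) of the 22972 rows of each file. Because the libraries were selected on these same values, all differences below are descriptions, and no test of any treatment was made with them.

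B16 is a mouse melanoma cell line, and all 9 libraries came from wild-type (WT) cells grown on a film of the silicone PDMS in DMEM with serum and collected on day 3. The CTL libraries came from cells without straining. The MS libraries came from cells strained cyclically for 72 h, and the Blebb libraries from cells given 100 ng/mL of blebbistatin, an inhibitor of non-muscle myosin, for 72 h. For the Blebb libraries the study describes straining together with blebbistatin, whereas their labels give only the drug. The labels call the 3 libraries of a condition parallel experiments and do not say whether these were separate cultures.

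Trib3 and Ddit3 (the pseudokinase TRB3 and the transcription factor CHOP) are targets of the integrated stress response. In this response, kinases that sense amino acid shortage, misfolded protein in the endoplasmic reticulum, heme shortage or double-stranded RNA phosphorylate the initiation factor eIF2α, which lowers general translation and favours translation of ATF4. ATF4 then acts with C/EBP partners on genes for amino acid uptake, amino acid synthesis and tRNA charging. In proliferating cells, E2F factors drive the genes of DNA replication, and the DREAM and MuvB complexes act on mitotic genes through a promoter element called CHR.

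The promoter windows that follow are shown because the genes behind them belong to the ATF4 branch and the cell cycle, the programs described first. They were taken from RefSeq windows on GRCm38.p6 (250 bases before to 50 after the annotated start), are written 5′ to 3′ on the strand of the gene, and are cut to the matched letters with their flanks. Capitals mark the letters TGATGNAAN on either strand, a form of the C/EBP-ATF element, in 5 genes of the ATF4 branch.
Trib3, chr2:152344013-152344073, - strand: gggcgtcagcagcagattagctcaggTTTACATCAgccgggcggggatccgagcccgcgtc
Chac1, chr2:119351022-119351082, + strand: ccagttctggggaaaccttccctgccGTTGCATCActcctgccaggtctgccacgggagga
Nupr1, chr7:126625547-126625607, - strand: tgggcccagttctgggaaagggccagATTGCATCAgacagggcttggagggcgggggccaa
Asns, chr6:7693198-7693258, - strand: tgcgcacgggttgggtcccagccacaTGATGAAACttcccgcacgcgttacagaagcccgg
Slc7a11, chr3:50443627-50443705, - strand: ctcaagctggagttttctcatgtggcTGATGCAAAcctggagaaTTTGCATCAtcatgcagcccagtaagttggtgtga

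These letters stood in 3.95% of all 32851 RefSeq windows and in 2.08% of the windows of the genes compared. Among genes that were at least 2-fold higher in the 3 libraries, 11 of 128 windows (8.59%) held them, against 4 of 228 windows (1.75%) of genes at least 2-fold lower. The set of higher genes includes Trib3 and Ddit3, which chose the libraries, and the Trib3 window is among its matches. In the list of the integrated stress response, with Trib3 and Ddit3 included, 5 of 22 windows (22.7%) held a match, those of Trib3, Chac1, Nupr1, Atf3 and Jdp2. The Ddit3 window held none of these letters. The window of Slc7a11, a cystine transporter, held 2 matches, although its level was lower in CTL 1 and Blebb 2 (below). A match is a description of the letters and not a measured binding site.

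In the next windows, capitals mark TTTGAA (the CHR element) in the mitotic genes Plk1 and Mki67, and TTTGGCGC or TTTCCCGC (forms of the E2F site) in the replication genes Mcm5 and Hells, again on either strand.
Plk1, chr7:122159439-122159484, + strand: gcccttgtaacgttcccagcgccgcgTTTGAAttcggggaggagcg
Mki67, chr7:135716446-135716521, - strand: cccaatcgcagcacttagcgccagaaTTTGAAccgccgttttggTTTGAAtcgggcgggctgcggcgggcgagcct
Mcm5, chr8:75109334-75109393, + strand: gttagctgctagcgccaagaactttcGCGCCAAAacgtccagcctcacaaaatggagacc
Hells, chr19:38930902-38930961, + strand: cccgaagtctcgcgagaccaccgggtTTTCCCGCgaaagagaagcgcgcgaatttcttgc

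TTTGAA was found in 30 of 43 windows (69.8%) of the G2/M list, against 17.9% of all windows and 11.8% of those of the genes compared. An E2F form was found in 12 of 45 windows (26.7%) of the S phase list, against 1.56% of all windows and 3.18% of those of the genes compared. Among genes at least 2-fold lower in the 3 libraries, 24.6% of windows held TTTGAA and 9.21% an E2F form, and among genes at least 2-fold higher these shares were 9.38% and 0 of 128 windows. The E-box CACGTG stood in 10.2% of the windows of genes at least 2-fold higher and in 7.89% of those at least 2-fold lower, and the CRE-like letters GTGACGT in 4.69% and 6.14%, against 7.15% and 3.85% of all windows and 10.5% and 6.62% of those of the genes compared. The endoplasmic reticulum stress element (ERSE) stood in 0 of 128 and 2 of 228 of these windows and in 0.119% of all windows and 0.157% of those of the genes compared. All motifs were searched on both strands.

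Both genes of the rule separated the libraries by a wide gap. Trib3 was at 153 FPKM in CTL 1, 103 in MS 3 and 183 in Blebb 2, and between 19.4 and 41.7 FPKM (median 22.8) in the other 6 libraries. Ddit3 was at 137 FPKM in CTL 1, 99.1 in MS 3 and 131 in Blebb 2, and between 18.5 and 45.7 FPKM (median 24.2) in the other 6. At the edge of the choice, MS 3 was the lowest of the 3 libraries for both genes. It stood 2.47-fold above Blebb 1, the highest of the 6 for Trib3, and 2.17-fold above MS 1, the highest for Ddit3.

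The libraries also differed in other measures. The summed FPKM of a library was between 468133 and 484093 in the 3 libraries and between 439939 and 477948 in the other 6, and genes at 1 FPKM or more numbered 9529 to 9999 against 9763 to 10388. Mitochondrially encoded genes took 8.27% to 11.8% of the FPKM in the 3 libraries and 5.07% to 7.19% in the other 6. The correlation across genes between a library's deviation and the GC content of the transcript was 0.45 in CTL 1, -0.16 in MS 3 and 0.54 in Blebb 2, and ran from -0.64 in MS 1 to 0.55 in Blebb 1 among the other 6. CTL 1 and Blebb 2 therefore had the same sign of this correlation as Blebb 1, and MS 3 had the sign of the remaining CTL and Blebb libraries. The part of GC content and of the mitochondrial share in the differences below was not tested beyond the values given beside them. The sequencing depth is unknown.

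The 16 pigment and melanocyte genes were all measured in every library and summed to 15435 to 16933 FPKM in the 3 libraries and to 10120 to 12443 in the other 6. Markers of other cells were near 0. The summed FPKM was 0.83 to 1.05 in the 3 and 0.77 to 1.19 in the other 6 libraries for 7 fibroblast markers, and 2.25 to 2.81 against 2.10 to 4.32 for 8 macrophage markers, of which 1, Cd68, reached a mean of 1 FPKM. Keratinocyte, endothelial and lymphocyte markers summed to at most 0.055, 0.15 and 0.27 FPKM in any library. Of the defining markers, 3 fibroblast, 3 macrophage, 4 keratinocyte, 3 endothelial and 5 lymphocyte genes were at 0 in all 9 libraries. In these bulk libraries a smaller number of cells of one kind and less RNA per cell cannot be told apart.

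For each gene, the value log2(FPKM + 1) of the chosen library was compared with the mean of the other 2 libraries of its condition, and the difference given is the mean over the 3 conditions with the SD (n = 3 conditions). Over all 9767 genes the median difference was -0.06. All 3 libraries were above all of the other 6 for 1556 genes (15.9%) and below all of them for 1585 genes (16.2%). With a difference of at least 2-fold in addition, 117 genes (1.2%) were higher and 250 genes (2.56%) were lower. Leaving out MS 3 gave 3149 genes lower and 669 lower by at least 2-fold, and leaving out Blebb 1 gave 450 lower by at least 2-fold. Leaving out a library can only raise the counts made without the 2-fold minimum, since fewer libraries can overlap. The shares are the background against which the counts of each gene group are read. Below, higher and lower mean that the 3 libraries did not overlap with the other 6.

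**Figure D1:**
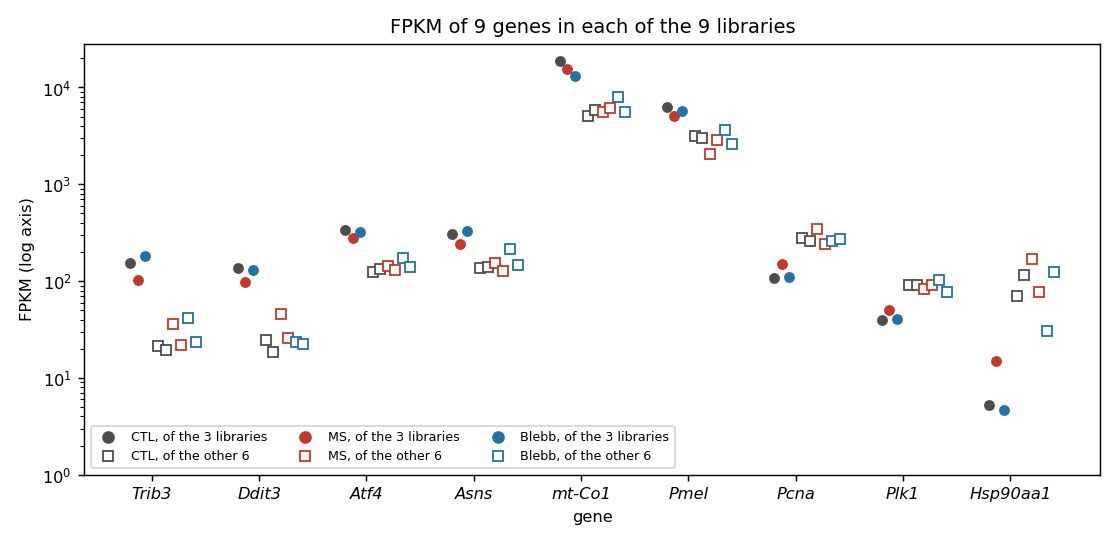
FPKM (log axis) of 9 genes in each library, with filled circles for the 3 libraries chosen by Trib3 and Ddit3, open squares for the other 6, and colour for the condition. The filled circles lie above all open squares for Trib3, Ddit3, Atf4, Asns, mt-Co1 and Pmel and below all of them for Pcna, Plk1 and Hsp90aa1, where MS 3 lies nearest to the squares.

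Genes of the ATF4 branch were higher together. Of 17 measured genes of the list besides Trib3 and Ddit3, 8 were higher and 0 lower, with a median difference of 0.58. Atf4, the transcription factor at the centre of the response, was at 337 FPKM in CTL 1, 280.5 in MS 3 and 319 in Blebb 2, and between 126 and 174 FPKM (median 137) in the other 6, a difference of 1.15 ± 0.20. Atf5, a related factor translated under the same control, was at 205, 141 and 202 FPKM against 34.2 to 67.8 (median 42.1), a difference of 2.02 ± 0.34. Nupr1, a small chromatin protein induced by stress, was at 21.7, 22.0 and 20.2 FPKM against 3.29 to 7.78 (median 3.92), a difference of 2.03 ± 0.20. In all of these genes, the lowest of the 3 libraries lay above the highest of the 6.

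Other targets of ATF4 and CHOP showed the same order. Chac1, which degrades glutathione, was at 48.1 FPKM in CTL 1, 36.8 in MS 3 and 47.3 in Blebb 2 against 10.3 to 19.7 (median 13.2) in the other 6, a difference of 1.58 ± 0.35. Ppp1r15a, the GADD34 subunit that directs the phosphatase to eIF2α, was at 25.1, 17.1 and 26.7 FPKM against 6.38 to 8.18 (median 6.70), a difference of 1.57 ± 0.34. Sesn2 and Ddit4, inhibitors of mTORC1 signaling, differed by 0.96 ± 0.10 and 0.67 ± 0.23, and Jdp2 by 0.58 ± 0.10. The eIF2 kinases did not follow, since Eif2ak1, Eif2ak2, Eif2ak3 and Eif2ak4 overlapped between the libraries, as did Atf3 (0.23), Cebpb (0.12) and Eif2s1 (-0.81), which encodes eIF2α. A further 4 genes of the list, Vldlr, Gdf15, Fgf21 and Stc2, had a mean below 1 FPKM.

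Amino acid metabolism divided by step. Among 14 measured genes of amino acid and one-carbon synthesis, 7 were higher and 1 lower (median 0.33). Asns, asparagine synthetase, was at 310.1 FPKM in CTL 1, 244 in MS 3 and 331 in Blebb 2 against 128 to 216 (median 143) in the other 6, a difference of 0.95 ± 0.20. Mthfd2, the mitochondrial folate enzyme, was at 186, 171 and 169 FPKM against 62.4 to 102 (median 86.6), and Pycr1, of proline synthesis, at 10.9, 8.2 and 15.4 FPKM against 2.78 to 6.48 (median 3.68). Their differences were 1.08 ± 0.24 and 1.33 ± 0.13. Serine synthesis was uneven, with Psph higher by 0.60 ± 0.14 while Phgdh (0.25) and Psat1 (0.11) overlapped with the other 6. Shmt1, the cytosolic serine hydroxymethyltransferase, was lower, at 5.27, 7.49 and 5.39 FPKM against 12.1 to 14.6 (median 13.0).

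Among 11 amino acid transporters, 5 were higher and 0 lower (median 0.46). Slc1a4, a transporter of neutral amino acids, was at 31.5 FPKM in CTL 1, 25.0 in MS 3 and 29.8 in Blebb 2 against 7.53 to 13.5 (median 9.16), a difference of 1.47 ± 0.13. The glycine transporter Slc6a9 (1.11 ± 0.19), both chains of the leucine exchanger, Slc7a5 (0.95 ± 0.17) and Slc3a2 (0.85 ± 0.11), and the glutamine transporter Slc1a5 (0.78 ± 0.08) were also higher. Slc7a11, whose promoter window was shown above, was at 1.69 FPKM in CTL 1, 3.82 in MS 3 and 1.60 in Blebb 2 against 3.04 to 11.9 (median 4.85), with a difference of -0.96 ± 0.33 and overlap through MS 3. Of 20 cytosolic tRNA synthetases, 3 were higher and 2 lower (median 0.06), a share near the background. The 3 were Sars (0.83 ± 0.29), Aars (0.73 ± 0.06) and Gars (0.65 ± 0.11), and Eprs was at 8.76, 24.3 and 7.38 FPKM against 12.4 to 48.0, so that MS 3 lay within the range of the 6. Of 17 mitochondrial synthetases, 2 were higher and 5 lower (median -0.12).

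Chaperones of the endoplasmic reticulum did not move with the ATF4 branch. Of 23 genes of chaperones and the unfolded protein response, 4 were higher and 5 lower (median -0.17). Hspa5, the chaperone BiP, was at 51.5 FPKM in CTL 1, 122 in MS 3 and 55.0 in Blebb 2, and between 95.7 and 185 FPKM (median 165) in the other 6, so that MS 3 overlapped (difference -1.08 ± 0.66). Hsp90b1, or GRP94, was at 11.5, 34.4 and 13.1 FPKM against 37.1 to 129.8 (median 80.7), a difference of -2.06 ± 0.69, and the lectin chaperone Canx at 31.3, 69.5 and 36.4 FPKM against 71.5 to 132 (median 117). The chaperones Calr and Pdia4 and the oxidoreductase Creld2 were lower as well, by smaller differences of -0.36, -0.39 and -0.35. The GC contents of the Hsp90b1 and Canx transcripts were 42.1% and 42.2%, below the median of 49.9% for all genes.

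In contrast, Herpud1, of the degradation pathway for misfolded protein, was at 74.1 FPKM in CTL 1, 65.5 in MS 3 and 84.5 in Blebb 2 against 39.3 to 58.1 (median 44.0), a difference of 0.70 ± 0.07. Sel1l (0.52 ± 0.22), of the same pathway, and the sensors Atf6 (0.77 ± 0.34) and Ern1 (0.26) were higher. Xbp1, the target of Ern1, was at 47.7, 48.2 and 69.5 FPKM against 43.1 to 51.8 (median 48.1), so that Blebb 2 alone stood above the range of the 6. Dnajb9 overlapped too, with a difference of 0.22 ± 0.26.

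Genes of the cell cycle were lower together, and none was higher. Of 51 S phase genes, 45 were lower and 0 higher, with a median difference of -1.01, and 23 were lower by at least 2-fold. Pcna, the sliding clamp of DNA replication, was at 107 FPKM in CTL 1, 152 in MS 3 and 111 in Blebb 2, and between 239.5 and 342 FPKM (median 267) in the other 6, a difference of -1.17 ± 0.23. The helicase subunit Mcm5 was at 38.1, 45.0 and 36.2 FPKM against 80.0 to 107 (median 87.3), a difference of -1.15 ± 0.25. Rrm2, the regulated subunit of ribonucleotide reductase, was at 39.4, 69.5 and 40.7 FPKM against 107 to 139 (median 128). The G1/S cyclins Ccne1 (-0.90 ± 0.12) and Ccne2 (-2.03 ± 0.35) were both lower. Brca1 was the 1 gene of the list with a positive difference, 0.33 ± 0.51, and overlapped with the other 6.

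Of 49 measured G2/M genes, 37 were lower and 0 higher, with a median of -1.04, and 20 were lower by at least 2-fold. Cdk1, the mitotic kinase, was at 17.1 FPKM in CTL 1, 24.0 in MS 3 and 17.9 in Blebb 2 against 42.3 to 59.0 (median 46.1) in the other 6, a difference of -1.24 ± 0.19. Plk1, the polo kinase, was at 39.5, 50.8 and 40.5 FPKM against 77.4 to 102 (median 90.6), a difference of -1.02 ± 0.23. Top2a, the topoisomerase of chromosome condensation, was at 4.23, 17.0 and 4.07 FPKM against 18.1 to 65.7 (median 42.0), so that MS 3 stood just below Blebb 1. Mki67, the proliferation antigen, was at 0.11, 0.61 and 0.17 FPKM against 0.78 to 10.3 (median 3.44). Pttg1, the securin, overlapped with a difference of 0.31 ± 0.26. In both lists the difference was smallest within MS, with a median of -0.74 for S phase and -0.72 for G2/M, against -1.15 and -1.19 within CTL and -1.13 and -1.16 within Blebb.

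With each library's trend of expression on GC content removed, 45 of 51 S phase and 45 of 49 G2/M genes were lower, with medians of -0.87 and -0.98, where 19.8% of all genes were lower. Ccne2 was then at -1.36. Plk1, with a transcript of 56.0% GC, was then at -1.10, and Top2a, with one of 43.4% GC, at -1.98. The 7 measured histone genes of the replication-dependent clusters went the other way, with 5 higher and 1 lower (median 0.35). H1f2, a linker histone, was at 60.0 FPKM in CTL 1, 47.2 in MS 3 and 58.0 in Blebb 2 against 11.5 to 16 (median 13.2), H2ac18 at 4.16, 4.70 and 3.62 FPKM against 1.60 to 2.37, and H4c9 was lower (-0.41 ± 0.30). H2ac18 and H2ac19 are close copies, so that reads may have been divided between them. Transcripts of most such genes lack a poly(A) tail, and 56 of the 63 histone genes in the files had a mean below 1 FPKM.

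**Figure D2:**
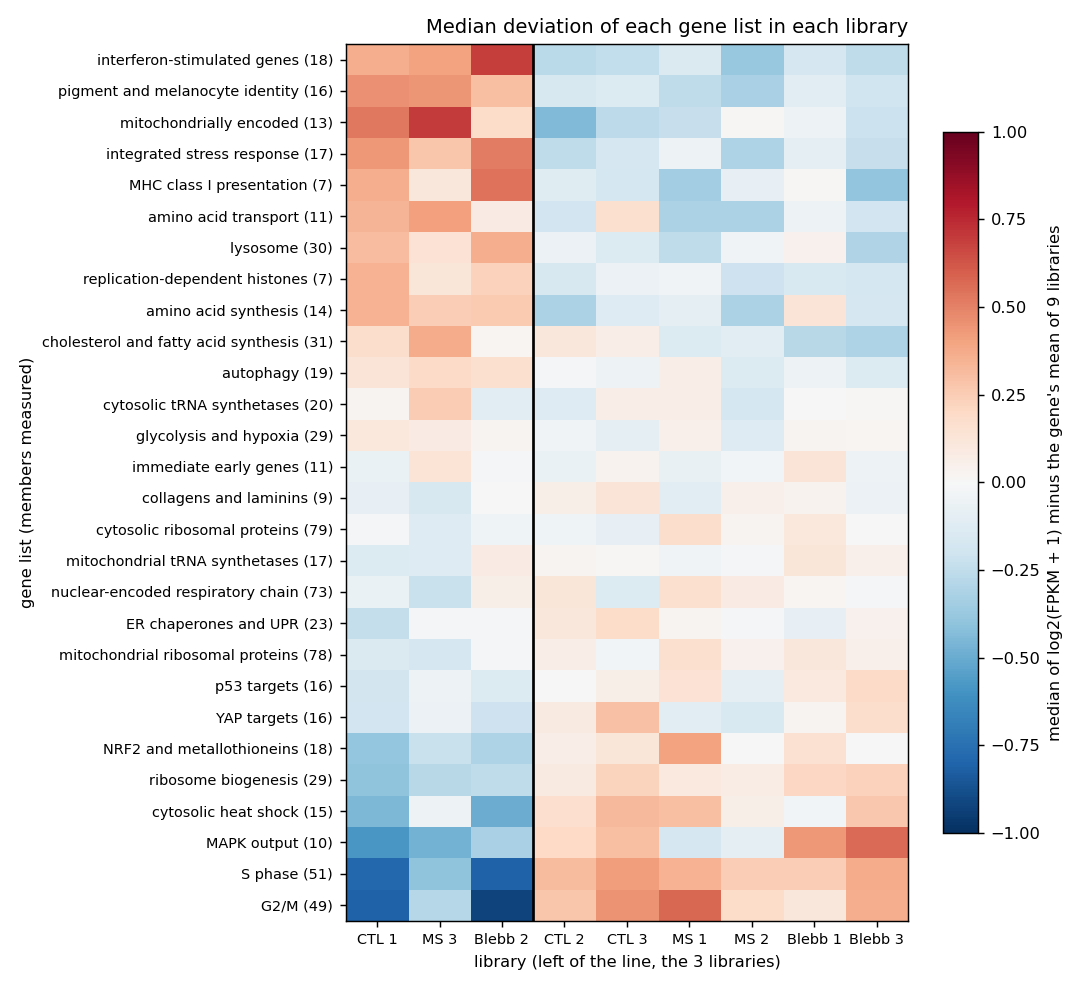
Median over the measured members of each gene list (number in brackets) of log2(FPKM + 1) minus the gene's mean of the 9 libraries, by library, with the 3 chosen libraries left of the line and lists ordered by their median difference. Red rows at the top are above average in CTL 1, MS 3 and Blebb 2 and the blue rows at the bottom below it, with S phase at -0.78, -0.41 and -0.81 in these libraries and between 0.25 and 0.42 in the other 6.

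Genes of ribosome production and growth signaling were lower beside the cell cycle. Of 29 ribosome biogenesis genes, 14 were lower and 0 higher (median -0.52). Myc, which drives this program, was at 9.90 FPKM in CTL 1, 10.9 in MS 3 and 11.5 in Blebb 2 against 24.0 to 35.9 (median 29.0) in the other 6, a difference of -1.35 ± 0.20. The nucleolar protein Npm1 was at 53, 103 and 44.0 FPKM against 113 to 295 (median 203), and the RNA-modifying protein Dkc1 at 0.28, 1.68 and 0.57 FPKM against 2.29 to 13.5 (median 7.05). Myc has a transcript of 53.3% GC, and those of Npm1 and Dkc1 hold 42.4% and 43.6%. Ncl, of 42.8% GC, was at 3.14, 11 and 3.55 FPKM against 8.66 to 42.0 and overlapped through MS 3, while Polr1a, the large subunit of RNA polymerase I, differed by 0.01 ± 0.19. Of 79 ribosomal proteins, 5 (6.33%) were higher and 17 (21.5%) lower (median -0.10), and among 78 mitochondrial ribosomal proteins 26 were lower and 2 higher (median -0.18).

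Of 10 genes that report MAPK output, 5 were lower and 0 higher (median -0.63). Ccnd1, cyclin D1, was at 29.0 FPKM in CTL 1, 28.7 in MS 3 and 36.3 in Blebb 2 against 58.1 to 104 (median 66.5), a difference of -1.20 ± 0.22. Etv5, an ETS factor induced by ERK, was at 0.43, 0.66 and 0.70 FPKM against 2.22 to 7.24 (median 3.27), and Dusp6, a phosphatase of ERK, at 20.6, 21.9 and 25.2 FPKM against 28.1 to 51.1 (median 37.2). The remaining 2 were Etv4 (-1.08 ± 0.53) and Spred2 (-0.63), and Spry2 (-0.63 ± 0.43) overlapped through Blebb 2. Among the other 6 libraries, this list was lowest in MS 1 and MS 2, at -0.17 and -0.09 from the mean of all libraries, and highest in Blebb 3 at 0.56.

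YAP is a regulator of transcription that responds to mechanical force. Of 16 YAP targets, 4 (25.0%) were lower, against 16.2% of all genes, and 0 higher (median -0.27). Within the conditions the list median was -0.40 for CTL, -0.035 for MS and -0.27 for Blebb. Ccn1 was at 4.33 FPKM in CTL 1, 5.59 in MS 3 and 4.28 in Blebb 2 against 10.7 to 15.4 (median 13.3) in the other 6, a difference of -1.29 ± 0.34. Ccn2 was at 1.20, 1.12 and 1.57 FPKM against 2.12 to 4.34 (median 3.59), a difference of -0.93 ± 0.21. F3 (-0.62 ± 0.16) and Arhgef17 (-0.24) were the other two, and Axl overlapped at 0.70 ± 0.10. Each condition holds 1 low library for Ccn1, Ccn2 and F3, so that a mean over the 3 libraries of a condition contains both levels.

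Pigment genes were higher although Mitf, the factor that activates them, was not. Of 16 genes of the list, 10 were higher and 1, Mlph, was lower (median 0.60). Pmel, the fibril protein of the melanosome, was at 6318 FPKM in CTL 1, 5106 in MS 3 and 5679 in Blebb 2 against 2079 to 3631 (median 2930.0) in the other 6, a difference of 1.00 ± 0.09. Trpm1, a cation channel gene regulated by MITF, was at 401, 289 and 476 FPKM against 80.6 to 166 (median 128), a difference of 1.65 ± 0.06. The melanosomal transporters Oca2 (1.75 ± 0.21) and Slc24a5 (1.37 ± 0.05) and the enzymes Tyr (0.74 ± 0.11) and Dct (0.60 ± 0.06) were higher in every condition. With the GC trend removed, Tyr, of 35.2% GC, was at 1.46 and Dct at 1.03, and the list median was 0.82. Mitf was at 9.50 FPKM in CTL 1, 21.2 in MS 3 and 8.51 in Blebb 2 against 14.2 to 36.2 (median 28.0), with a difference of -0.96 ± 0.66 that became -0.65 with the GC trend removed. Sox10 (0.28), Tyrp1 (0.28) and Mlana (-0.25) overlapped.

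Most lysosomal genes were higher by modest amounts, and differences over the list ran from -0.14 in Atp6v1h to 0.84 in Npc1. Of 30 genes, 18 were higher and 0 lower, with a median of 0.41, and none reached 2-fold. Npc1, the cholesterol exporter of the lysosome, was at 43.2 FPKM in CTL 1, 39.3 in MS 3 and 44.2 in Blebb 2 against 17.1 to 25.7 (median 24.2), a difference of 0.84 ± 0.09. Mcoln1, the lysosomal calcium channel, was at 27.0, 24.3 and 24.5 FPKM against 13.0 to 17.5 (median 14.8). Lamp1 differed by 0.28 ± 0.03 without overlap, whereas the protease gene Ctsd (0.34 ± 0.20) overlapped. Of 19 autophagy genes, 6 were higher and 0 lower (median 0.22), among them Tecpr1 (0.72 ± 0.06) and Map1lc3b (0.42 ± 0.10), and the receptor Sqstm1 was at 1195, 1181 and 1524 FPKM, below the range of 1301 to 1523 of the other 6 in CTL 1 and MS 3 and just above it in Blebb 2. Rb1cc1, left out of the 19 for a mean below 1 FPKM, was at 0.030, 0.045 and 0.051 FPKM against 0.128 to 1.07.

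Of 18 measured interferon-stimulated genes, 12 were higher and 1 lower (median 0.62). Usp18, a brake on interferon signaling, was at 4.37 FPKM in CTL 1, 3.41 in MS 3 and 5.96 in Blebb 2 against 0.97 to 1.58 (median 1.19), a difference of 1.31 ± 0.35. Irf9, of the ISGF3 complex, was at 8.93, 8.11 and 11.7 FPKM against 3.22 to 4.57 (median 3.6), and the RNA sensor gene Ddx58 at 6.56, 8.47 and 7.75 FPKM against 2.27 to 3.50 (median 2.82). Isg15 (0.89 ± 0.28) was higher too. The chemokine Cxcl10 was lower, at 0.92, 2.09 and 1.90 FPKM against 3.97 to 6.93 (median 5.66), and Ccl5 overlapped. Of 7 genes of MHC class I presentation, 5 were higher and 0 lower (median 0.57), with H2-D1 at 39.2, 35.4 and 44.7 FPKM against 19.8 to 28.1 and B2m at 0.45 ± 0.20. A further 9 interferon-stimulated and 5 presentation genes had a mean below 1 FPKM. Of these interferon-stimulated genes, Ifit1 was at 0.061, 0.108 and 0.108 FPKM, below the 0.687 to 1.32 of the other 6. Irf7 was at 0.530, 0.384 and 0.566 FPKM, above their 0.103 to 0.370.

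**Figure D3:**
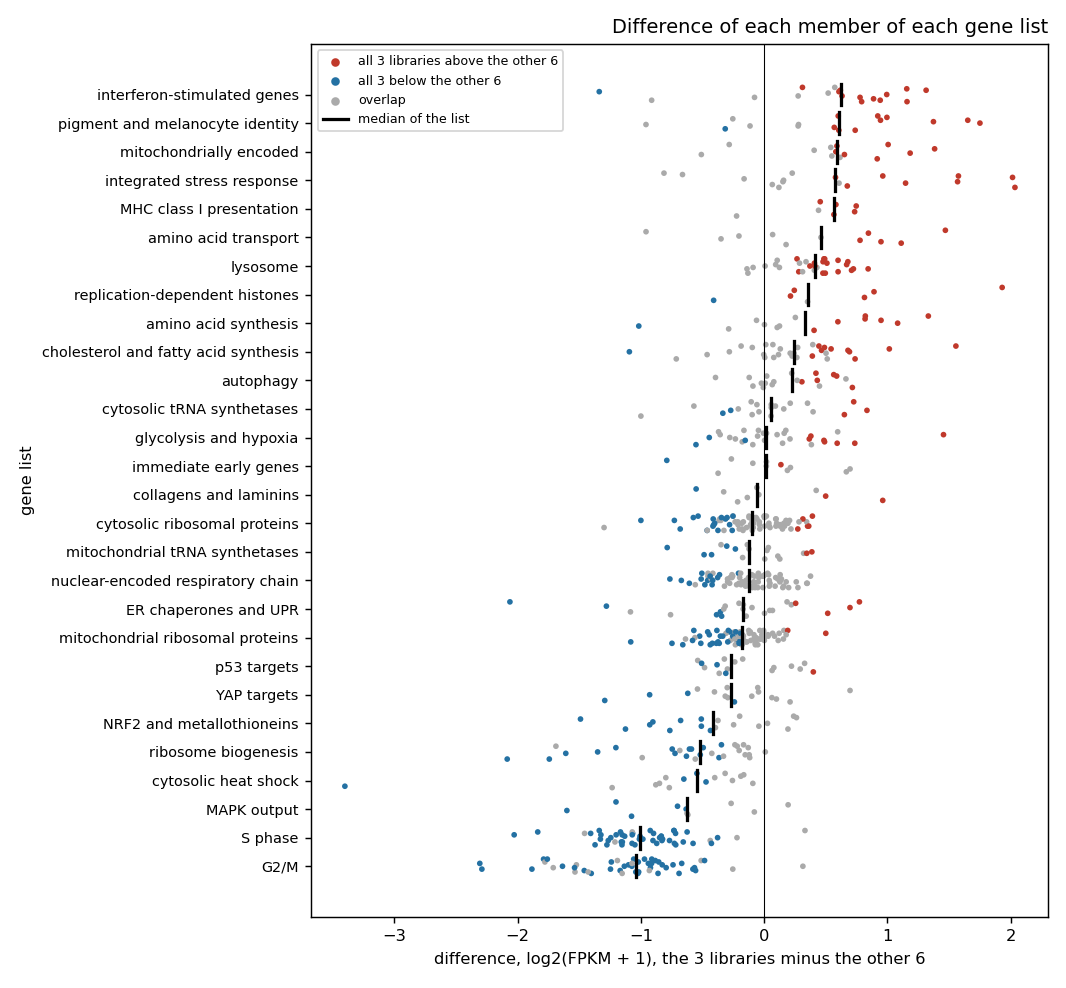
Difference of log2(FPKM + 1) between the 3 chosen libraries and the other 6 for each measured member of each gene list, with red and blue for members whose libraries did not overlap, grey for overlap, and a black line at the list median. The medians run from 0.62 for interferon-stimulated genes to -1.04 for G2/M, and the heat shock list holds the lowest single point, Hsp90aa1 at -3.40.

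Of 13 mitochondrially encoded protein genes, 7 were higher and 0 lower (median 0.59). With the GC trend removed, 8 were higher and 0 lower (median 1.28). The cytochrome oxidase gene mt-Co1 was at 18582 FPKM in CTL 1, 15415 in MS 3 and 13059 in Blebb 2 against 5034 to 7975 (median 5719), a difference of 1.38 ± 0.40. mt-Co3 (1.18 ± 0.37) and mt-Nd5 (1.01 ± 0.23) were higher, whereas mt-Nd1 (0.62 ± 0.54) and mt-Cytb (0.54 ± 0.45) overlapped and mt-Atp8 was at 1318, 2730.2 and 1222 FPKM against 2001 to 3117. The difference of mt-Atp8 was -0.51, and 0.37 with the GC trend removed, which also placed mt-Nd5 at 1.63 and mt-Nd1 at 1.22. The nuclear-encoded genes of the respiratory chain were not higher with them, since 0 of 73 were higher (median -0.12), against 15.9% of all genes. The share of lower genes, 13 of 73 (17.8%), was near the 16.2% of all genes. Cox7b (-0.77 ± 0.26) and Ndufb2 (-0.67 ± 0.36) were among these 13.

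Lipid and sugar metabolism differed in single steps. Of 31 genes of cholesterol and fatty acid synthesis, 10 were higher and 1 lower (median 0.24). Tm7sf2, a sterol reductase, was at 46.8 FPKM in CTL 1, 36.7 in MS 3 and 35.9 in Blebb 2 against 9.30 to 18.9 (median 12.6), a difference of 1.56 ± 0.16, and the desaturases Scd1 (1.02 ± 0.24) and Scd2 (0.74 ± 0.14) were higher. The elongase Elovl6 was lower (-1.09 ± 0.38), and Hmgcs1 was at 8.34, 25.4 and 7.63 FPKM against 9.16 to 26.2 and thus high in MS 3 alone among the 3. Of 29 genes of glycolysis and hypoxia, 7 were higher and 3 lower (median 0.02). Aldoc (1.45 ± 0.39), an aldolase, was higher and Ldha (-0.55 ± 0.16), lactate dehydrogenase, lower, and Vegfa (0.15) and the glucose transporter Slc2a1 (-0.23) overlapped.

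Lists of other stress programs held few or no higher genes. The heat shock list had 0 of 15 genes higher and 4 (26.7%) lower (median -0.55). Hsp90aa1, the inducible cytosolic HSP90, was at 5.32 FPKM in CTL 1, 14.9 in MS 3 and 4.66 in Blebb 2 against 30.8 to 169 (median 97.1), a difference of -3.40 ± 0.50 that was -3.12 with the GC trend removed. Hspa8 was at 784, 918 and 794 FPKM against 1237 to 1358 (median 1309). Of 18 NRF2 targets and metallothioneins, 9 were lower and 0 higher (median -0.42), with glutathione reductase Gsr at 13.6, 22.6 and 18.8 FPKM against 46.9 to 60.4 (median 52.2) and thioredoxin reductase Txnrd1 at -1.13 ± 0.25, while Hmox1 (0.19) and Mt1 (0.03) overlapped. Glutathione S-transferases went the other way, with 12 of 20 higher and 1 lower (see the other observations). The NRF2 list holds none of these 12. Of 16 p53 targets, 1 was higher and 3 lower (median -0.27), and Cdkn1a, the inhibitor p21, was at 159, 148 and 168 FPKM against 164 to 217. Immediate early genes (1 higher and 1 lower of 11) and collagens and laminins (2 higher and 1 lower of 9) gave shares at or near the background.

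The gene with the highest positive difference among all genes of at least 5 FPKM was Kcnj13, a potassium channel gene, at 46.4 FPKM in CTL 1, 36.9 in MS 3 and 47.7 in Blebb 2 against 1.64 to 11.9 (median 5.89), a difference of 2.79 ± 0.21. Mgll, monoacylglycerol lipase, followed at 72.1, 55.2 and 66.3 FPKM against 5.89 to 18.1 (median 8.02), a difference of 2.61 ± 0.05. Both exceeded the genes of the rule. Hpse, heparanase, was at 34.3, 27.7 and 39.7 FPKM against 7.35 to 11.6, and Phyhd1, Cyb5r2 and the nuclear receptor Nr4a3 differed by 1.96 ± 0.71, 1.94 ± 0.15 and 1.60 ± 0.72. The list of the 15 highest genes further holds Trib3, Ddit3, Nupr1, Atf5, Chac1, Ppp1r15a, H1f2, Oca2 and Trpm1.

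After Hsp90aa1, the lowest genes were Ssb, the La protein that binds RNA ends, at 1.19 FPKM in CTL 1, 3.92 in MS 3 and 2.54 in Blebb 2 against 9.69 to 48.9 (median 27.1), and Dek, a chromatin protein, at 0.77, 1.22 and 0.78 FPKM against 4.15 to 17.1 (median 11.3). Their differences were -2.96 ± 0.65 and -2.58 ± 0.27. Other genes among the 15 lowest included Top2a, Taf1d, Septin7, Atad2, Kif5b, Matr3, Alyref, Dkc1, Hsp90b1, Cops2 and Cacybp, with differences between -2.29 and -1.98. In Ssb, Dek, Matr3 and Cops2 the transcript held 38.1%, 39.2%, 38.5% and 37.3% GC. Alyref, an mRNA export factor of 47.0% GC, was at 5.08, 9.71 and 9.61 FPKM against 34.7 to 38.8 (median 36.6), the narrowest range of the 6 libraries among these 15 genes.

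The low GC content of these genes was general. In the 1933 genes with the lowest GC content (31.0% to 44.2%), 18.5% were lower and 4.45% higher, and 7.6% were lower by at least 2-fold. In the 1933 with the highest (55.6% to 72.8%), 11.9% were lower, 20.6% higher and 0.62% lower by at least 2-fold. The median GC content was 43.0% for genes at least 2-fold lower, 52.9% for genes at least 2-fold higher and 49.9% for all genes. Once each library's GC trend was taken out, 2088 genes were higher and 1912 lower, 135 and 179 of them by at least 2-fold, and 143 of the 250 genes at least 2-fold lower kept that call. In the same values Ssb was at -2.38, Dek at -2.05, Matr3 at -1.59 and Cops2 at -1.42, all nearer to 0 than without the removal. The number of lower genes went from 4 to 7 for heat shock, from 3 to 5 for p53 targets, from 3 to 6 for glycolysis and hypoxia, from 1 to 4 for collagens and laminins, from 5 to 3 for mitochondrial tRNA synthetases and from 13 to 8 for the nuclear-encoded respiratory chain, and autophagy had 10 genes higher in place of 6. The integrated stress response had 10 higher and 1 lower in place of 8 and 0. MHC class I presentation had 4 higher and 1 lower in place of 5 and 0. Amino acid synthesis had 5 higher in place of 7, and endoplasmic reticulum chaperones 6 in place of 4. Over all genes the shares went from 15.9% to 21.6% higher and from 16.2% to 19.8% lower.

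**Figure D4:**
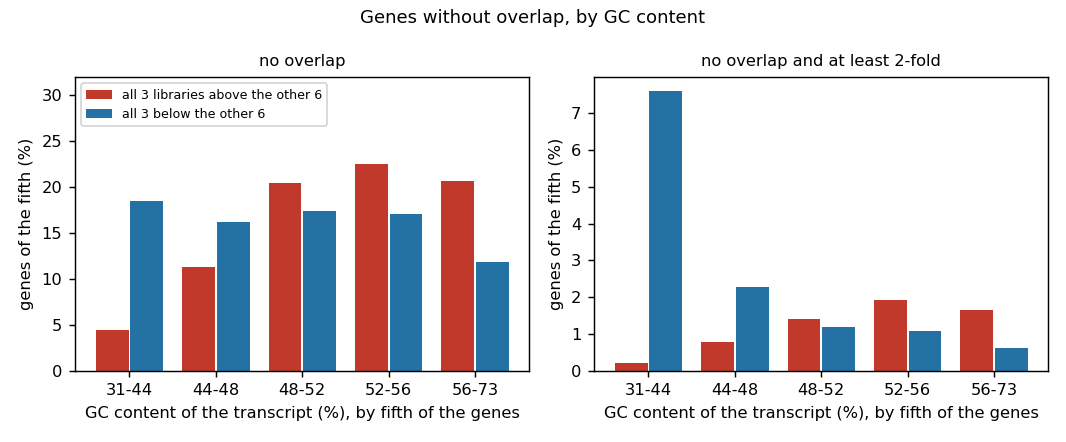
Percent of genes in 5 equal groups of transcript GC content for which the 3 chosen libraries were all above (red) or all below (blue) the other 6, on the left without and on the right with a 2-fold minimum. In the group of lowest GC content, 7.6% of genes were lower by at least 2-fold, and 0.62% in that of the highest.

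The differences were most similar between CTL and Blebb, and less so between either of them and MS. Across 9767 genes, the difference of CTL 1 from the other CTL libraries correlated with that of Blebb 2 from the other Blebb libraries at r = 0.93, and with that of MS 3 from the other MS libraries at r = 0.76. For MS 3 and Blebb 2 the value was 0.73. The sign was shared by 87.1%, 74.8% and 73.4% of genes in these pairs. These are descriptions across genes, which are not independent replicates, and the 3 libraries were chosen together. CTL 1 and Blebb 2 also shared the sign of the correlation with GC content, which MS 3 did not. The part of GC content in these values was not tested. The differences within MS were narrower, with an SD over genes of 0.43 against 0.60 within CTL and 0.55 within Blebb.

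**Figure D5:**
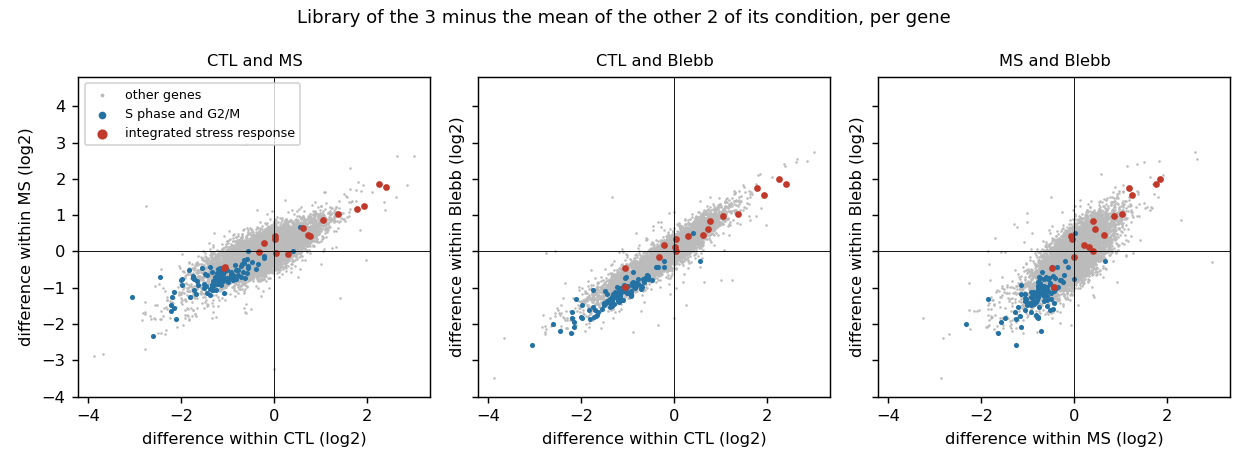
Difference of log2(FPKM + 1) between the chosen library and the mean of the other 2 of its condition for each gene, plotted for each pair of conditions, with the integrated stress response list in red and the S phase and G2/M lists in blue. Points lie along the diagonal, most tightly for CTL and Blebb (r = 0.93), with cell cycle genes at the lower left and most stress response genes at the upper right.

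On the first principal component of the genes compared, which held 70.9% of the variance, CTL 1 (-41.6) and Blebb 2 (-43.4) stood apart, MS 3 (-9.75) lay beside Blebb 1 (-7.40), and the remaining libraries lay between 5.80 and 35.6. The second component, with 15.2%, placed MS 3 (23.5) and Blebb 1 (-20.3) at its ends. Correlation between whole libraries was 0.975 to 0.995 for pairs among the 3 libraries, 0.962 to 0.994 for pairs among the other 6, and 0.918 to 0.976 for pairs with 1 of each. MS 3 and Blebb 1 were thus close on the first component while they differed 2.47-fold in Trib3, and Blebb 1 was the lowest of the other 6 for Canx, Ncl and Hspa5 but the highest of them for Myc, at 35.9 FPKM. Trib3 and Ddit3 chose the 3 libraries and so say nothing of a label of stressed against growing cultures. The cell cycle lists were lower in these 3 libraries. These lists were chosen with earlier results of the same data known, so they are not independent support for that label. Of the endoplasmic reticulum chaperone list, 17.4% of members were higher and 21.7% lower, against 15.9% and 16.2% of all genes. The heat shock and NRF2 lists had 0 members higher and 26.7% and 50% lower, and the p53 list 6.25% higher and 18.75% lower.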

How the data were processed

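RNA sequencing was measured in 9 libraries of B16 cells, 3 each for CTL, MS and Blebb by the labels. The authors extracted RNA with TRIzol, prepared libraries with the SMARTER mRNA-Seq kit and deposited 1 FPKM value per gene and library. The submitters' processing notes name the builds GRCm38 and mm10, and the aligner and counting program are not given in the sources used here. The value column of CTL 1 carries a sample name as its header and was read as FPKM. Of 22972 rows, 1139 had no gene symbol and 6489 were at 0 in every library. Depth is unknown, so no counting intervals are given, and 9 libraries limit the precision.

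Values were compared as log2(FPKM + 1), which understates changes of low genes, over named genes averaging 1 FPKM or more. The difference was the mean over conditions of the chosen library minus the other 2, and a gene was called where the 3 and the 6 libraries did not overlap. No test was run, since the libraries were selected on these values. The libraries, the 35 gene lists and the comparisons were chosen with earlier results of these data known. Named genes were Trib3, Ddit3, key members of each list, its 3 largest members and the largest opposite one, and the 15 highest and lowest genes of at least 5 FPKM. Some genes that this rule names are not reported here. Other genes named from a list or a count were chosen after their values were seen. GC content was read from GENCODE M21, with the longest transcript for each symbol, and was available for 98.9% of genes. Promoter windows from RefSeq were found for 7908 of the 9767 genes, and in 78.0% of the windows that could be checked the last 30 bases lay in the start of a GENCODE transcript. The calculation recovered known differences in simulated data with independent noise for each gene and library. Those data held none of the trends shared across genes, such as that with GC content, of the real libraries. Python 3.11.15, pandas 2.3.3, statsmodels 0.14.6 and matplotlib 3.10.9 were used.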

Additional observations from a re-analysis of the deposited data

How the results depend on the processing

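The median differences of the 28 lists with at least 5 measured genes were recomputed under other processing settings and with each library left out. Other settings left 220 medians within the SD over conditions of the reported value and leaving out a library left 242 within it. The sign changed in at least 1 setting for 6 lists, all but histones and mitochondrial tRNA synthetases with reported medians between -0.06 and 0.06. The sign was the same in 14 of 18 settings for cytosolic tRNA synthetases, 16 of 18 for glycolysis and hypoxia and for collagens and laminins, 17 of 18 for immediate early genes and mitochondrial tRNA synthetases and 15 of 16 for histones. The differences were taken within each condition, and no paired test was run because the libraries were selected on these values. With a pseudocount of 0.1, 198 genes were at least 2-fold higher and the interferon-stimulated list was at 0.81. Without a minimum level the medians were 0.19 for the integrated stress response, 0.18 for amino acid transport, 0.31 for interferon-stimulated genes, 0.15 for autophagy and -0.041 for histones, which reversed. A minimum mean of 5 FPKM left 138 genes at least 2-fold lower, with 0.78 for amino acid transport, -0.16 for mitochondrial tRNA synthetases, 1.07 for histones, -0.17 for p53 targets and 0.19, of the opposite sign, for collagens and laminins. Median-of-ratios factors gave -0.069 for mitochondrial tRNA synthetases, 0.075 for glycolysis and -0.36 for NRF2 targets. Quantile normalization gave -0.067 for mitochondrial tRNA synthetases, 0.55 for histones, -0.12 for p53 targets and 0.011, also opposite in sign, for collagens and laminins. With the GC trend removed, mitochondrial tRNA synthetases reversed to 0.0047, and mitochondrially encoded genes were at 1.28, pigment genes at 0.82, NRF2 targets at -0.35, p53 targets at -0.055 and collagens and laminins at -0.15. Removal of both GC and length trends, chosen after seeing the data, gave -0.00046, 1.31, 0.79, -0.35 and -0.067 for mitochondrial tRNA synthetases, mitochondrially encoded, pigment, NRF2 and p53 genes and -0.079 for mitochondrial ribosomal proteins. Rescaling without mitochondrially encoded genes, also chosen after seeing the data, moved no list median beyond its SD over conditions. The cause of these shifts was not tested.

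With single libraries left out, genes lower numbered 1621 to 3149, genes at least 2-fold lower 191 to 669, genes higher 1566 to 2312 and genes at least 2-fold higher 98 to 154. The counts without the 2-fold minimum can only rise in this way, since fewer libraries can overlap. The medians ran from -0.12 to -0.034 for mitochondrial tRNA synthetases, -0.014 to 0.086 for glycolysis and hypoxia, 0.13 to 0.27 for autophagy and -0.51 to -0.38 for NRF2 targets and metallothioneins. The highest counts of lower genes came without MS 3. Of single genes, 1465 values stayed within the SD over conditions under other settings and 147 moved beyond it, and with a library left out 1617 stayed and 30 moved. The values have no counts behind them, so sampling error of low genes could not be given. The 3 libraries were picked from these data and no condition holds more than 1 of them.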

Other observations

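Further gene families were looked at after their values had been seen, and are given as values. Of 20 glutathione S-transferases and related microsomal enzymes, 12 were higher in CTL 1, MS 3 and Blebb 2 than in the other 6 libraries and 1 was lower, with a median difference of 0.57. The NRF2 list, with 0 genes higher, holds none of these 12, so its values do not describe them. Gsta2 was at 38.0 FPKM in CTL 1, 29.98 in MS 3 and 41.0 in Blebb 2 against 8.75 to 14.99 (median 11.9) in the other 6, and Gstm1 at 482, 449 and 503 FPKM against 165 to 280.1. Members of this family are close in sequence, so that the authors' counting could divide reads between them. Of 6 ID genes and BMP targets, 5 were lower and 0 higher (median -1.11), with Id3 at 6.12, 3.94 and 6.46 FPKM against 9.65 to 49.0 and Id1 at 0.70, 0.69 and 0.90 FPKM against 2.05 to 13.3. The median GC content of these 6 was 56.3%.

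Of 12 SMC and condensin genes, 9 were lower and 0 higher (median -1.36), with a median GC content of 43.3%. Of 14 actin and tubulin genes, 8 were lower and 0 higher (median -0.55), with a median GC content of 55.0%. Actb was at 376 FPKM in CTL 1, 476 in MS 3 and 499 in Blebb 2 against 847 to 1087, and Tubb4b at 206, 216 and 209 FPKM against 341 to 391.5, whereas Actg1 overlapped. Of 11 clock genes, 4 were higher and 0 lower (median 0.00), namely Dbp, Tef, Nr1d1 and Arntl, with Dbp at 13.0, 8.73 and 12.2 FPKM against 2.93 to 4.84. Fos was at 15.2 FPKM in MS 3 and between 0.53 and 1.49 FPKM in the other 8 libraries. The difference of MS 3 from MS 1 and MS 2 in Fos therefore has no counterpart in CTL 1 (0.53 FPKM) or Blebb 2 (0.71 FPKM).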
